A study of Mus musculus with 103 samples.

Results

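The genes described here are 32 members of the p53 pathway, followed in quiescent mouse embryonic fibroblasts after exposure to Cre and after deletion of Ctcf, Smc3, Wapl, or Ctcf and Wapl together. They were chosen by symbol: Trp53 itself, its regulators, and established p53 target genes of arrest, cell death and DNA repair. Each of the 32 had 1 row among the 23339 rows of the main mRNA table, and all 32 were also present in the second mRNA table and in both tables of nascent RNA. The question was whether Cre, or loss of any of the deleted genes, raised p53 targets in cells that do not divide.

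p53 is a transcription factor kept scarce by the ubiquitin ligase Mdm2, whose own gene p53 activates, and Mdm4 is a relative of Mdm2 that holds p53 inactive. DNA damage and related stress stabilise the protein, which then raises genes that stop the cell cycle, foremost Cdkn1a, and genes that repair DNA or promote apoptosis. In cultured fibroblasts the Cdkn2a locus is a further input: it encodes p19Arf, which restrains Mdm2, and p16Ink4a, which inhibits cyclin-dependent kinases. p53 is controlled largely at the protein level, and no protein was measured here.

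The series sequenced mRNA, nascent RNA and immunoprecipitated chromatin of C57BL/6 fibroblasts in 103 samples, of which 29 were mRNA and 10 nascent RNA libraries. The chromatin libraries were not analysed here. All mRNA libraries used came from non-proliferating cells rested for 10 days, so rest was common to controls and deleted cells. The main mRNA table held 27 libraries in 12 groups, and library depth ran from 8.5 to 41.1 M reads in genes, as recovered from the steps of the deposited values.

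Cre reached the cells by virus or by an inducible transgene. Wild-type clones 2 and 3, Ctcf(fl/fl) clones 1 and 2 and clone 4 of the doubly floxed Ctcf(fl/fl) Wapl(fl/fl) cells received an adenovirus carrying Cre (Adeno-Cre) for 4 h before the rest, each with an untreated library of the same clone, and doubly floxed clone 3 had only its untreated library in this table. Rosa26(CreER/+) clones 2 and 3, which carry a tamoxifen-inducible Cre and no floxed allele, Rosa26(CreER/+) Smc3 clones 1 to 4 and Rosa26(CreER/+) Wapl(fl/-) clones 1 and 2 received 4'-hydroxytamoxifen for 2 to 3 days before the rest, again each beside its untreated library. Smc3 clone 1 was fl/fl and clones 2, 3 and 4 were fl/-. The untreated Smc3 cells of those 3 clones and the untreated Wapl cells thus already carried 1 deleted allele. A library is 1 clone under 1 treatment.

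RefSeq promoter windows (build GRCm38.p6, 250 bases before to 50 bases after a transcript's start) were found for 23 of the 32 members. The windows were searched for the p53 response element, named here as the consensus of 2 half-sites of 10 bases with a spacer of up to 13 bases. Its half-site reads the same on both strands, so 1 search covered both. A full site without mismatch lay in 0.0731% of all 32851 windows and one with at most 1 mismatch in 1.09%. Among the members, Cdkn1a held the first kind and Bax, Ccng1 and Polk the second. They are printed because they are the member genes whose promoter windows carried the closest matches, with the half-sites in capitals and 15 flanking bases on each side:
Cdkn1a, chr17:29090891-29090952, plus strand: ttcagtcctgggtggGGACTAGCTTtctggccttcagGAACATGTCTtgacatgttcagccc
Ccng1, chr11:40755447-40755496, minus strand: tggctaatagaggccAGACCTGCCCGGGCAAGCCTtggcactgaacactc
Bax, chr7:45467075-45467125, minus strand: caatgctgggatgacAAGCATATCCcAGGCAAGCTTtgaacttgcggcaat
Polk, chr13:96519383-96519433, minus strand: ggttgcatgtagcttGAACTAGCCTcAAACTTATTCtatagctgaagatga
The first base of the site lay 73 bases before the transcript start of its window in Cdkn1a, 195 in Ccng1, 212 in Bax and 231 in Polk. Only the pair of half-sites with the fewest mismatches was kept in each window. In Cdkn1a the 10 bases directly after the second capitalised half-site also pair with it, without a spacer and with 1 mismatch. Cdkn1a and Polk each had another searched window, at another transcript start, whose best match had 5 mismatches in Cdkn1a and 4 in Polk. That of Cdkn1a lay downstream, at chr17:29093519-29093818, so the printed site is near 1 start of the gene and far from the other. These are matches of letters and were not tested for binding. The windows of Ddb2, Perp, Pmaip1, Rrm2b, Tap2, Tnfrsf10b, Trp53inp1, Xpc and Zmat3 were not among those searched.

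Levels are given in RPKM, reads scaled to transcript length and library size, and differences on the scale of log2(RPKM + 1), which understates the change of low genes. The targeted transcripts were first compared with the labels. Ctcf stood at 11.6 and 13.2 RPKM in untreated and at 4.04 and 4.23 in Adeno-Cre-treated Ctcf(fl/fl) clones. Wapl, listed as Wapal, stood at 1.48 and 1.80 RPKM in untreated and at 0.78 and 0.91 in treated Wapl clones. Smc3 mRNA lay between 7.62 and 10.5 RPKM in untreated and between 10.9 and 13.2 in treated Smc3 clones, so the transcript did not show the deletion and the direction rests on the label. The 10 fibroblast markers summed to between 9530 and 18410 RPKM in every library. The 16 macrophage markers summed to between 30.0 and 5346 RPKM, so the share of such cells or their RNA per cell differed widely between clones, and these cannot be told apart in bulk RNA.

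In untreated resting cells the p53 targets were already expressed over a wide range. Cdkn1a, the p21 inhibitor of cyclin-dependent kinases, was the highest, with a lowest value of 557, a median of 734 and a highest value of 922 RPKM over 14 untreated libraries. Phlda3, an inhibitor of Akt signalling, and Cdkn2a followed with medians of 298 and 251 RPKM. Mdm4 and Ddb2 were the lowest, with medians of 0.997 and 0.989 RPKM. Untreated clones differed least in Trp53, between 55.8 and 83.1 RPKM, and most in Gdf15, a secreted stress cytokine, between 1.68 and 30.1 RPKM, a ratio of 17.9. Pmaip1, Btg2 and Perp followed with ratios of 11.1, 9.48 and 7.69 between the highest and lowest untreated clone. All 32 members passed the filter of at least 1 RPKM in at least 2 libraries, which 12604 genes passed.

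Adeno-Cre and hydroxytamoxifen were each given to cells without a floxed allele, and no virus without Cre was analysed here, so virus and Cre cannot be told apart. Adeno-Cre in wild-type cells raised 2 of 32 members, Bax and Cdkn2a, and lowered none, where 2.70% of all genes tested were higher and 0.540% lower (limma, Benjamini-Hochberg adjusted p under 0.05). Pairing the libraries by clone gave 6 higher and 2 lower there, beside 15.8% and 7.24% of all genes in that fit. Hydroxytamoxifen in Cre-ER cells without a floxed allele changed 0 of 32 members, with 0% of all genes called in either direction. None of the members and 41 of all genes reached an unadjusted p under 0.05 in limma in that comparison. Untreated Cre-ER cells differed from untreated wild-type cells in 2 members that were higher, Bbc3 and Xpc, and 1 that was lower, Cdkn2a, where 2.60% of all genes were higher and 4.09% lower. With each library's trend of expression with transcript length removed, an alternative chosen after seeing the data, neither Bax (0.31, adjusted p = 0.41) nor Cdkn2a (0.43, adjusted p = 0.29) passed in wild-type cells.

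In each deletion, treated clones differed from untreated clones in between 2 and 6 of the 32 members. These differences include any response to virus, Cre or hydroxytamoxifen. After Ctcf deletion Bax and Trp53 were higher and Cdkn1a and Tap2 lower, beside 5.04% of all genes higher and 2.63% lower. Bax was also higher in wild-type cells given Adeno-Cre, and net of that response 0 members were higher for Ctcf. After Smc3 deletion 5 members were higher, Cdkn2a, Ckap2, Rrm2b, Trp53i11 and Xpc, and 0 lower, beside 9.37% and 5.60%. After Wapl deletion Cdkn1a and Trp53i11 were higher and 0 lower, beside 1.5% and 0.928%. Deletion of Ctcf and Wapl had 5 members higher, Perp, Pmaip1, Trp53, Trp53i11 and Xpc, and Cdkn2a lower, beside 10.5% and 5.34%. Its treated group is 1 library, which is assumed to vary like the other groups. The median difference of the 32 members was 0.13 for Adeno-Cre, -0.01 for hydroxytamoxifen, 0.23 for Ctcf, 0.25 for Smc3, 0.11 for Wapl and 0.19 for Ctcf and Wapl. Over all genes tested it was 0.04, -0.00085, 0.05, 0.07, -0.01 and 0.175 in the same order. Differences above 0 were seen in 24, 15, 21, 24, 18 and 22 of the 32 members in that order, and the plot by role shows arrest and death genes on both sides of 0.

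The choice of scaling moved the all-gene median most after Ctcf and Wapl deletion, where the median of all genes was 0.175 and became -0.0026 with libraries scaled by the median of ratios. That scaling turned 1324 genes higher and 673 lower into 685 and 924 there, 340 and 68 into 194 and 83 for Adeno-Cre, 635 and 331 into 521 and 418 for Ctcf, and 1181 and 706 into 882 and 795 for Smc3. Net of the controls it turned 59 and 96 into 36 and 104 for Smc3 and 271 and 217 into 193 and 262 for Ctcf and Wapl. Of the 5 members called higher after Ctcf and Wapl deletion, 1 was still called under it, Pmaip1. Marker sums moved with some deletions. The macrophage markers summed to between 65.3 and 2159 RPKM in untreated and between 30.0 and 428 in treated Smc3 clones. Of the 16, 0 were called without pairing by clone and 12 were lower in the paired fit, beside 12.6% of all genes lower in that fit. The fibroblast markers summed to between 10480 and 14270 RPKM in untreated doubly floxed clones and to 9530 in the treated one. Of the 10, 3 were lower without pairing and 5 in the paired fit, beside 5.34% and 8.17% of all genes. The part of these shifts in the members' values was not tested.

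**Figure D1:**
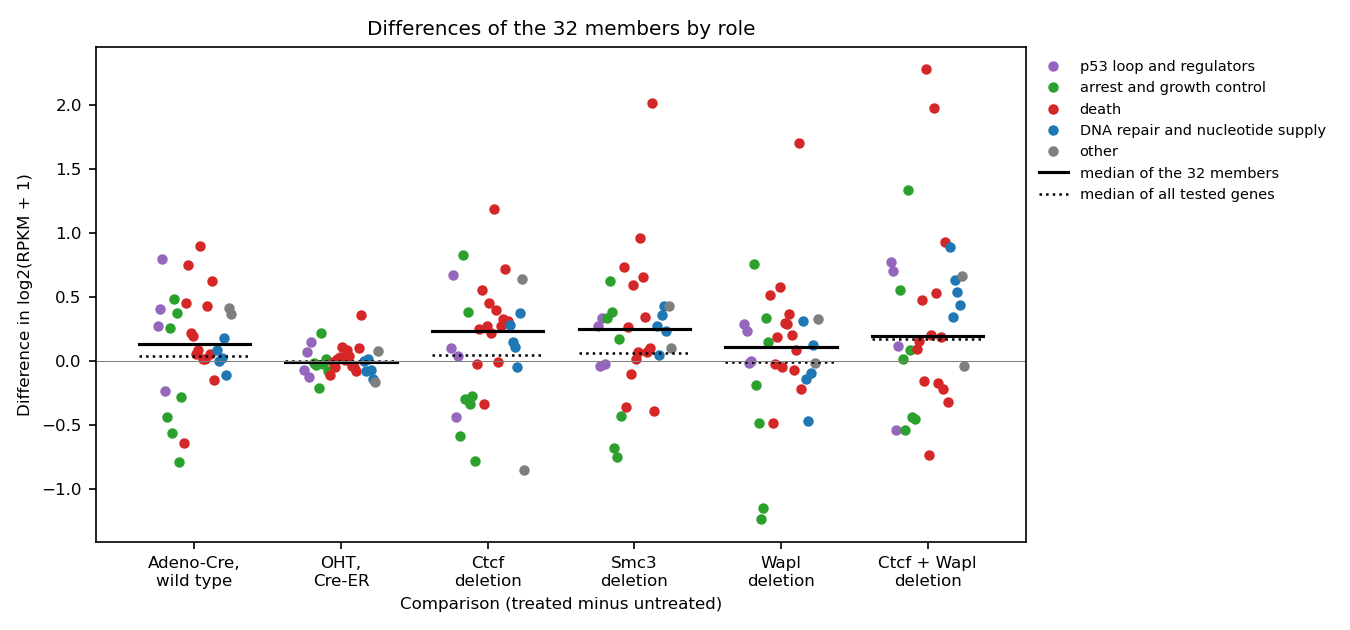
Difference in log2(RPKM + 1) between treated and untreated clones (y axis) of each of the 32 members in 6 comparisons (x axis), coloured by role; solid lines are the medians of the members and dotted lines those of the 12604 genes tested. In Cre-ER cells given hydroxytamoxifen (OHT) every member lay between -0.21 and 0.36, while after the deletions single genes reached 2.02 (Smc3) and 2.28 (Ctcf and Wapl).

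Taking the clone as a block sets each treated library against the untreated one from the same clone. That fit called 6 members higher and 2 lower after Adeno-Cre in wild-type cells, beside 15.8% and 7.24% of all genes. The counts were 7 and 5 after Ctcf deletion beside 15.7% and 9.35%, and 16 and 4 after Smc3 deletion beside 24.0% and 12.6%. They were 3 and 2 after Wapl deletion beside 7.62% and 6.97%, and 5 and 4 after Ctcf and Wapl deletion beside 14.7% and 8.17%. In Cre-ER cells given hydroxytamoxifen the block called 0 members. Ctcf and Wapl deletion has 1 clone with both libraries, so the block there assumes that this clone varies like the others.

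**Figure D2:**
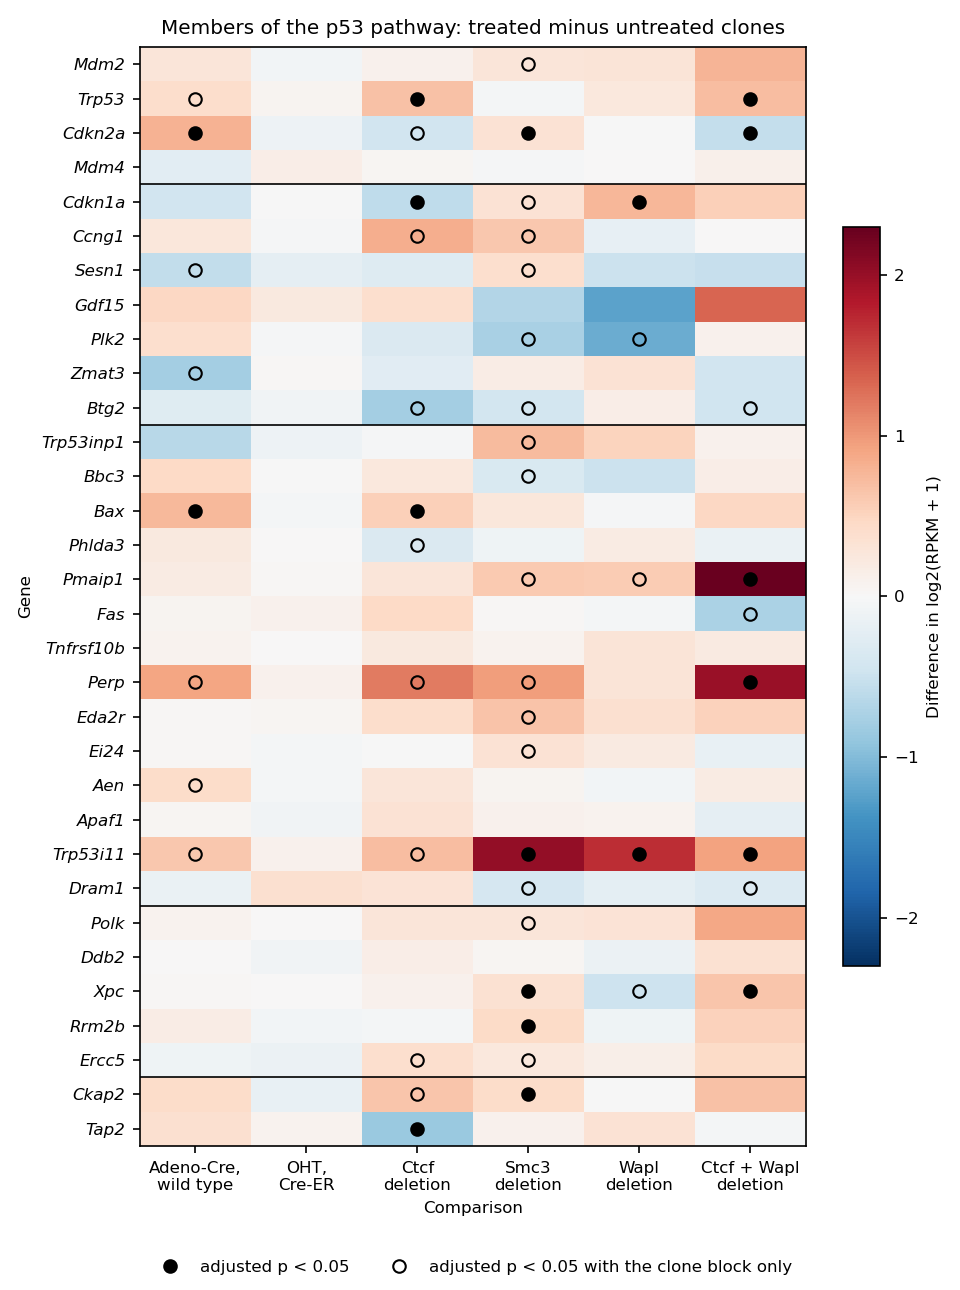
Difference in log2(RPKM + 1) (colour) of each member (rows, grouped by role with lines between groups) in 6 comparisons of treated with untreated clones (columns). Filled circles mark an adjusted p under 0.05 and open circles members that passed only with the clone as a block; the Smc3 column holds the most circles, with 5 filled, and the hydroxytamoxifen column none.

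Among the regulators, Trp53 mRNA rose after deletion of Ctcf, alone or with Wapl. It stood at 58.0 and 59.9 RPKM in untreated and at 91.1 and 97.6 in Adeno-Cre-treated Ctcf(fl/fl) clones, without overlap. The difference was 0.67 (SE 0.12, adjusted p = 0.0015). In doubly floxed cells the untreated clones stood at 83.1 and 74.5 RPKM and the treated clone 4 at 129, a difference of 0.70 (SE 0.15, adjusted p = 0.0033). With libraries scaled by the median of ratios over genes that difference was 0.47 (adjusted p = 0.079). Wild-type cells moved the same way under Adeno-Cre, from 59.3 and 62.7 to 91.2 and 72.0 RPKM, and this passed only with the clone as a block (0.41, adjusted p = 0.074, with the block 0.021). Neither the Ctcf deletion (difference 0.26, adjusted p = 0.77) nor the Ctcf and Wapl deletion (0.30, adjusted p = 0.46) passed for Trp53 once the wild-type response to Adeno-Cre was subtracted. In Smc3 clones Trp53 lay between 63.3 and 73.6 RPKM untreated and between 62.5 and 71.0 treated, and the groups overlapped.

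Cdkn2a, whose row pools the transcripts of p19Arf and p16Ink4a, moved in opposite directions. In wild-type cells it rose from 219 and 278 RPKM to 437 and 420 with Adeno-Cre, a difference of 0.79 (SE 0.13, adjusted p = 0.0035), not called without treated clone 2 (0.77, adjusted p = 0.059) or untreated clone 2 (0.62, 0.087). Given the same virus, Ctcf(fl/fl) cells stood at 249 and 277 RPKM untreated and at 202 and 185 treated. That difference was -0.44 and passed only with the block (adjusted p = 0.053, with the block 0.012). In doubly floxed cells it fell from 269 and 248 to 177 RPKM, a difference of -0.54 (SE 0.16, adjusted p = 0.031), not called without untreated clone 3 (-0.48, adjusted p = 0.14). The response of Ctcf(fl/fl) cells differed from that of wild-type cells by -1.23 (SE 0.19, adjusted p = 0.0012), and that of the doubly floxed cells by -1.34 (SE 0.21, adjusted p = 0.0010). In Smc3 clones Cdkn2a rose from between 253 and 279 RPKM to between 316 and 349, with no overlap and in 4 of 4 clones (0.34, SE 0.09, adjusted p = 0.0205). That call was lost without treated clone 4 (0.32, adjusted p = 0.062), without untreated clone 1 (0.31, 0.055), with median-of-ratios scaling (0.27, 0.14) and with the length trend removed (0.28, 0.14). Wapl clones stood at 166 and 154 RPKM untreated and at 170 and 148 treated. Untreated Cre-ER cells, at 173 and 141 RPKM, lay below untreated wild-type cells (difference -0.66, SE 0.13, adjusted p = 0.0057). This was not called without Cre-ER clone 3 (-0.51, adjusted p = 0.16) or wild-type clone 3 (-0.49, 0.13).

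Mdm2, the ligase and feedback target of p53, passed in no comparison without the block. It stood at 48.2 and 61.4 RPKM in untreated and at 58.4 and 74.7 in Adeno-Cre-treated wild-type cells, and at 62.7 and 56.7 against 59.6 and 68.7 in Ctcf(fl/fl) cells. In Smc3 clones 1 to 4 it went from 34.5, 37.2, 61.2 and 39.2 to 48.4, 48.7, 64.9 and 43.3 RPKM, higher in each clone. That difference was 0.27 (adjusted p = 0.46, with the block 0.032). Wapl clones 1 and 2 went from 28.8 and 31.2 to 40.8 and 33.5 RPKM. Cre-ER clones 2 and 3 stood at 46.5 and 51.6 RPKM untreated and at 44.6 and 49.0 with hydroxytamoxifen. The untreated doubly floxed clones 3 and 4 differed from each other, at 35.3 and 86.1 RPKM, and the treated clone 4 stood at 95.2. Mdm4 lay between 0.45 and 1.71 RPKM over all 27 libraries and was called in no comparison.

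Of the 7 genes of arrest and growth control, Cdkn1a was called in 2 deletions, in opposite directions. After Ctcf deletion it fell from 842 and 829 RPKM to 573 and 541 (-0.59, SE 0.16, adjusted p = 0.034). With any 1 of those 4 libraries left out the difference lay between -0.63 and -0.54 and was not called (adjusted p between 0.090 and 0.19). Wild-type cells given Adeno-Cre went the same way, from 618 and 712 to 512 and 466 RPKM (-0.44, adjusted p = 0.15), and the 2 responses differed by -0.15 (adjusted p = 1.00). In Wapl clones Cdkn1a rose from 557 and 656 to 1085 and 962 RPKM, without overlap (0.76, SE 0.16, adjusted p = 0.018). It was not called without treated clone 1 (0.67, adjusted p = 0.30), untreated clone 1 (0.64, 0.20) or untreated clone 2 (0.87, 0.055). The same 2 Wapl clones had macrophage markers summing to between 4225 and 5346 RPKM untreated and between 1084 and 3315 treated, and the part of that shift in the result was not tested. Of the 16 macrophage markers, 0 passed in the Wapl comparison. Cre-ER cells showed 819 and 922 RPKM untreated and 853 and 873 with hydroxytamoxifen, and the Wapl response exceeded theirs by 0.77 without passing (adjusted p = 0.30).

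In Smc3 clones 1 to 4 Cdkn1a went from 712, 617, 849 and 757 RPKM to 1022, 901, 860 and 910. It was higher in 4 of 4 treated clones, with a difference of 0.34 that passed only with the block (adjusted p = 0.058, with the block 0.029). In doubly floxed cells it stood at 602 and 796 RPKM untreated and at 1017 in the treated clone (0.55, adjusted p = 0.070). Against the response of wild-type cells to the same virus this was a difference of 1.00 (SE 0.26, adjusted p = 0.036). Cdkn1a was thus higher in the treated library in 8 of 13 clone pairs, and Trp53inp1 and Zmat3 each moved in the direction of Cdkn1a in 12 of the 13. Plk2, Gdf15, Bbc3 and Dram1 moved with it in 2 of 13 each. These are the 2 ends of the range over the other members, and the 13 pairs include the wild-type and Cre-ER controls. Counts of clone pairs, here and for the members below, were not made over all genes, so they cannot be read as particular to these genes.

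**Figure D3:**
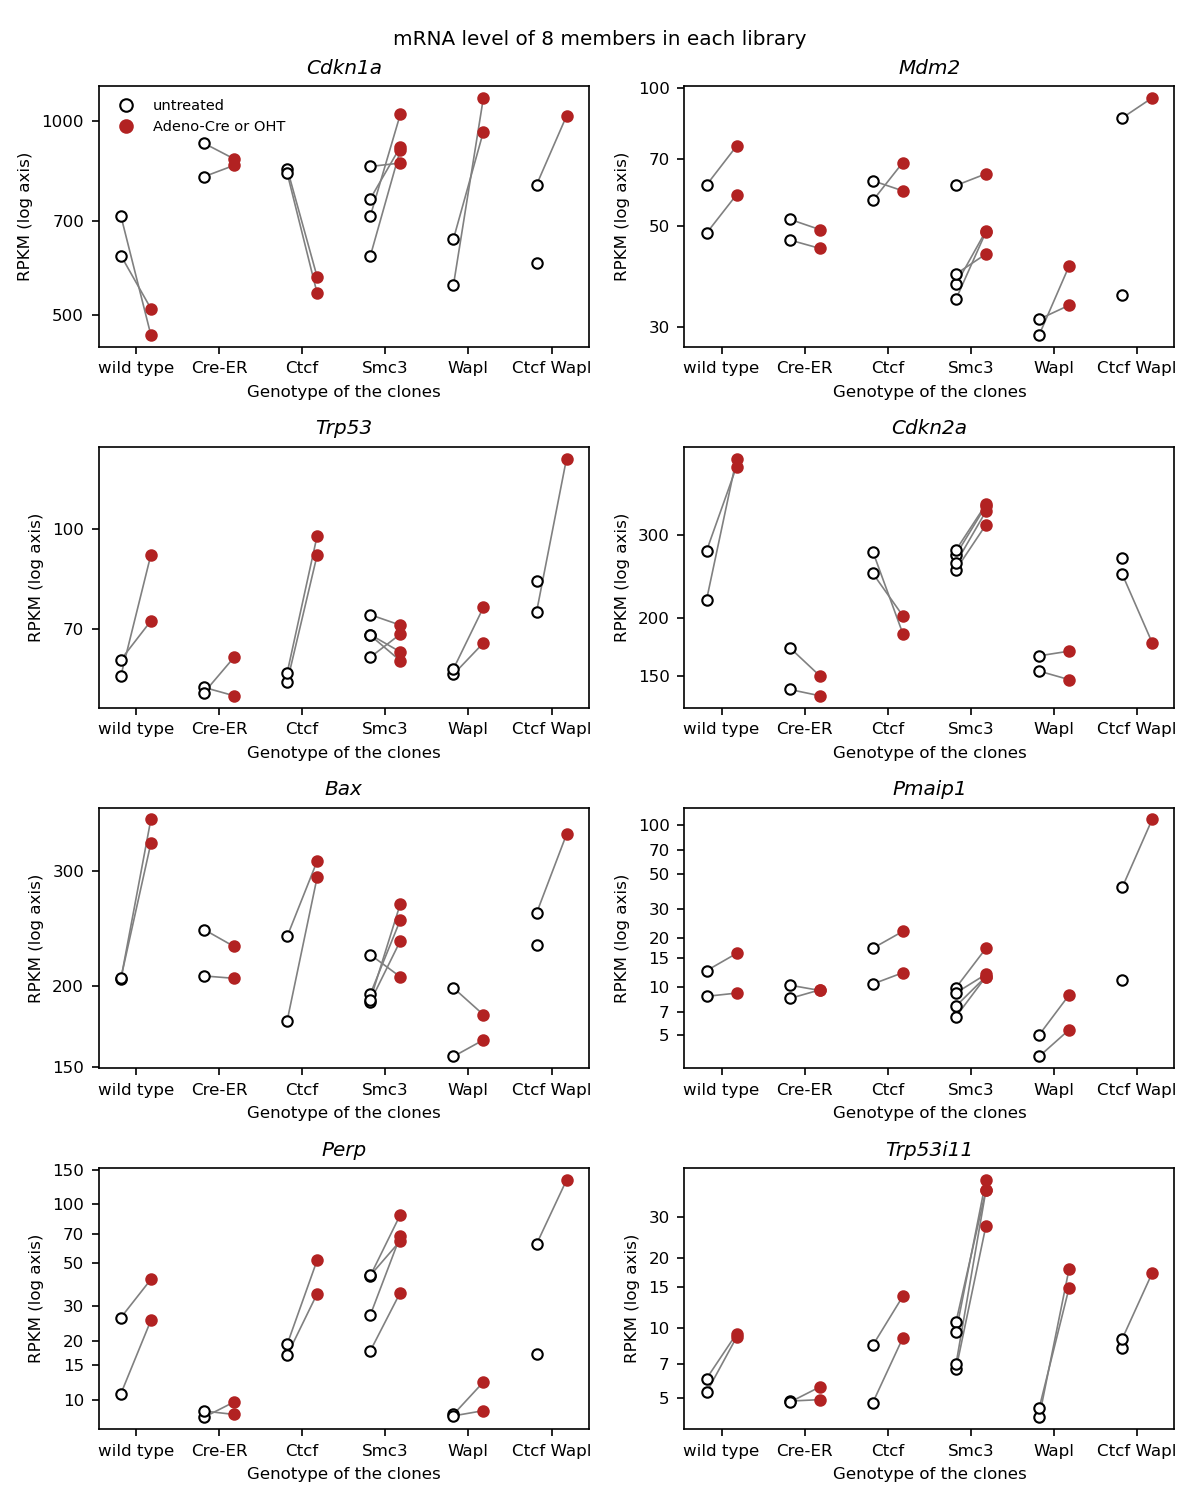
mRNA level in RPKM (y axis, log scale) of 8 members in each library, by genotype (x axis); open circles are untreated and filled circles Adeno-Cre- or hydroxytamoxifen (OHT)-treated libraries, and grey lines join libraries of 1 clone. Trp53i11 was higher in all 13 treated libraries that have a partner, while Cdkn1a went down in the Ctcf and up in the Wapl clones, and the untreated Ctcf Wapl clones stood apart in Mdm2, Pmaip1 and Perp.

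The other 6 genes of the arrest group were called in none of the comparisons without the block. Ccng1, a cyclin G, stood at 68.5 and 81.7 RPKM in untreated and at 112 and 160 in treated Ctcf(fl/fl) clones, and it was higher in each of the 4 treated Smc3 clones. With the block these differences were 0.83 (adjusted p = 6.4e-04) and 0.63 (adjusted p = 2.8e-04). The untreated Smc3 clones ranged from 23.8 to 76.7 RPKM, wider than the difference between treatments. Plk2, a stress-induced kinase, was lower in 4 of 4 treated Smc3 clones (-0.75, with the block adjusted p = 0.0033) and in both treated Wapl clones, from 47.2 and 31.7 to 15.2 and 18.9 RPKM (-1.15, with the block 0.0073). Btg2, an antiproliferative gene, ranged from 49.1 to 495 RPKM over the 27 libraries. With the block it was lower after Ctcf deletion (-0.78, adjusted p = 0.012), Smc3 deletion (-0.43, adjusted p = 0.027) and Ctcf and Wapl deletion. Sesn1, a stress-response regulator of growth signalling, had block calls in both directions, -0.56 with Adeno-Cre in wild-type cells and 0.38 after Smc3 deletion. Zmat3 was lower with Adeno-Cre in wild-type cells (-0.79, with the block adjusted p = 0.017), and Gdf15 passed nowhere with or without the block.

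Of the 14 genes of the death group, Trp53i11, a p53-inducible gene linked to apoptosis, was higher in the treated library in 13 of 13 clone pairs. Among Smc3 clones 1 to 4 it rose from 6.67, 10.6, 7.01 and 9.63 RPKM to 27.5, 39.2, 39.1 and 43.3, without overlap (2.02, SE 0.17, adjusted p = 6.2e-07). In Wapl clones it rose from 4.15 and 4.53 to 18.0 and 14.9 RPKM (1.70, SE 0.24, adjusted p = 7.2e-04). In the doubly floxed cells it rose from 8.20 and 9.01 to 17.3 RPKM (0.93, SE 0.30, adjusted p = 0.042), which was no longer called with libraries scaled by the median of ratios (0.71, adjusted p = 0.19), without untreated clone 3 (0.87, 0.16) or without untreated clone 4 (0.99, 0.052). Cre-ER cells stood at 4.86 and 4.81 RPKM untreated and at 4.93 and 5.59 with hydroxytamoxifen, a difference of 0.10 that was not called. The response of the Smc3 clones exceeded theirs by 1.92 (SE 0.30, adjusted p = 0.0032). That of the Wapl clones exceeded theirs by 1.60 (SE 0.34) and passed with the block alone (adjusted p = 0.081, with the block 0.0042). In wild-type and Ctcf(fl/fl) cells given Adeno-Cre, Trp53i11 differed by 0.63 and 0.72, called with the block only.

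Pmaip1 (Noxa), a BH3-only inducer of apoptosis, and Perp, a membrane protein of p53-dependent apoptosis and desmosomes, rose after deletion of Ctcf and Wapl. Pmaip1 stood at 11.04 and 41.1 RPKM in untreated clones 3 and 4 and at 108 in treated clone 4 (2.28, SE 0.53, adjusted p = 0.0066). Perp stood at 17.0 and 62.4 RPKM in the same untreated clones and at 132 in treated clone 4 (1.98, SE 0.65, adjusted p = 0.046). The 2 untreated clones differed between each other by more than clone 4 changed, and without untreated clone 3 neither passed (Pmaip1 1.38, adjusted p = 0.069; Perp 1.07, adjusted p = 0.38). With the clone as a block both passed (adjusted p = 5.0e-04 and 0.015). With median-of-ratios scaling Perp did not (1.75, adjusted p = 0.082). Perp was higher in 12 of 13 treated libraries, among them 4 of 4 Smc3 clones, from 17.7, 27.1, 43.0 and 43.1 to 35.3, 68.4, 88.1 and 64.8 RPKM (0.96, adjusted p = 0.096, with the block 3.7e-04). The block also called Perp higher with Adeno-Cre in wild-type cells (0.90, adjusted p = 0.0075) and after Ctcf deletion (1.19, 0.0013). Pmaip1 was also higher in 12 of 13, and passed with the block in Smc3 clones (0.60, adjusted p = 5.1e-04) and Wapl clones (0.58, adjusted p = 0.011).

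Bax, the pore-forming effector of mitochondrial apoptosis, rose with Adeno-Cre in wild-type and in Ctcf(fl/fl) cells. It went from 205 and 206 to 360 and 331 RPKM in wild-type cells (0.75, SE 0.16, adjusted p = 0.017). Ctcf(fl/fl) cells went from 177 and 238 to 294 and 311 RPKM (0.56, SE 0.16, adjusted p = 0.041), and the 2 responses differed by -0.19 without passing. The first was not called without treated clone 2 (adjusted p = 0.22) or either untreated clone (both 0.11), and the second not without either treated clone (0.10 and 0.21) or untreated clone 1 (0.34, adjusted p = 0.46). With median-of-ratios scaling the second stood at 0.47 (adjusted p = 0.095). Both calls were lost when the trend with transcript length was removed, the second at 0.34 (adjusted p = 0.18), and the Bax transcript of 863 bases is the shortest of the 32. Under hydroxytamoxifen Bax lay at 230 and 205 RPKM against 244 and 207 in Cre-ER cells. In treated doubly floxed clone 4 it lay at 342 RPKM, against 231 and 259 in untreated clones. Bbc3 (Puma), another BH3-only protein, was 0.92 higher in untreated Cre-ER than in untreated wild-type cells (48.7 and 44.8 against 20.7 and 28.2 RPKM, SE 0.27, adjusted p = 0.0498), and it was not called with any 1 of these 4 libraries left out (adjusted p between 0.10 and 0.31). It was lower in 4 of 4 treated Smc3 clones (-0.36, with the block adjusted p = 0.041).

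The remaining death genes were called in no comparison without the block. With it, the Smc3 clones were higher in Trp53inp1 (0.73), a p53 cofactor of apoptosis and autophagy, Eda2r (0.66), a receptor of the TNF family, and Ei24 (0.34). Dram1, an inducer of autophagy, was lower in Smc3 clones (-0.39) and in doubly floxed clone 4. The death receptor Fas was lower in that clone as well, at 4.94 against 11.8 RPKM untreated. Phlda3 was lower after Ctcf deletion (-0.34, with the block adjusted p = 0.018) and Aen, an apoptosis-enhancing nuclease, higher with Adeno-Cre in wild-type cells (0.43, with the block adjusted p = 0.015). Apaf1, the core of the apoptosome, and Tnfrsf10b, a TRAIL receptor, were called nowhere, with differences between -0.21 and 0.38 and between -0.17 and 0.30 in the 7 group comparisons.

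Of the 5 genes of DNA repair and nucleotide supply, Xpc and Rrm2b rose after Smc3 deletion. Xpc, the damage sensor of nucleotide excision repair, went from between 9.87 and 10.7 RPKM to between 10.7 and 15.1, higher in 4 of 4 clones (0.36, SE 0.10, adjusted p = 0.016). It was not called without treated clone 4 (0.30, adjusted p = 0.068) or with median-of-ratios scaling (0.30, 0.068). Rrm2b, the p53-inducible subunit of ribonucleotide reductase, went from 1.15, 0.78, 1.21 and 0.93 to 1.89, 1.21, 1.82 and 1.99 RPKM in clones 1 to 4 (0.43, SE 0.11, adjusted p = 0.013), and was not called without treated clone 4 (0.39, 0.051). Xpc also rose after deletion of Ctcf and Wapl, from 6.96 and 7.62 to 11.8 RPKM (0.63, SE 0.17, adjusted p = 0.015), a call lost with median-of-ratios scaling (0.42, adjusted p = 0.14) and without untreated clone 3 (0.57, 0.077). In Wapl clones it went the other way, from 11.5 and 12.4 to 7.66 and 9.06 RPKM (-0.47, with the block adjusted p = 0.015). Untreated Cre-ER cells, at 12.0 and 11.4 RPKM, were higher in Xpc than untreated wild-type cells at 8.09 and 8.27 (0.47, SE 0.14, adjusted p = 0.044), a difference not called with any 1 of these 4 libraries left out (adjusted p between 0.17 and 0.22). Ercc5, a nuclease of the same repair pathway, passed with the block only, after Ctcf deletion (0.38) and Smc3 deletion (0.24), and so did the translesion polymerase Polk after Smc3 deletion (0.28). Ddb2 overlaps its neighbour Acp2, and Dram1 overlaps Washc3, so reads of these pairs may not be separable. Ddb2, whose product binds UV-damaged DNA, lay between 0.51 and 1.71 RPKM on as few as 15 reads and was called nowhere.

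Ckap2, a microtubule-associated protein of dividing cells, rose after Smc3 deletion from 4.92, 4.45, 5.89 and 6.05 to 8.15, 8.27, 8.35 and 5.53 RPKM (0.43, SE 0.14, adjusted p = 0.0435), higher in 3 of 4 clones. Omitting treated clone 1, 2 or 3 or untreated clone 1 or 2 ended the call (0.36 to 0.40, adjusted p between 0.091 and 0.13). Tap2, a peptide transporter of antigen presentation, fell after Ctcf deletion from 28.5 and 21.9 to 13.9 and 12.96 RPKM (-0.85, SE 0.17, adjusted p = 0.0041), not called without untreated clone 1 (-0.67, adjusted p = 0.10). In wild-type cells given Adeno-Cre it stood at 22.4 and 19.8 RPKM untreated and at 32.1 and 23.4 treated, and the 2 responses differed by -1.22 (SE 0.25, adjusted p = 0.012). That was not called without Ctcf(fl/fl) untreated clone 1 (-1.04, adjusted p = 0.079), wild-type treated clone 2 (-0.9986, 0.093) or wild-type untreated clone 3 (-1.135, 0.071).

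Responses were also set against those of the matching cells without a floxed allele, which share the same control libraries across comparisons. Net of Adeno-Cre, Ctcf deletion left 0 members higher and 2 lower, Cdkn2a and Tap2, beside 0.738% and 0.722% of all genes. With the block 0 were higher and 3 lower, beside 3.42% and 3.53%, with Phlda3 added (-0.56, adjusted p = 0.025). Net of hydroxytamoxifen, Smc3 deletion left 1 member higher, Trp53i11, and 0 lower, beside 0.468% and 0.762%. With the block this was 5 higher and 1 lower, beside 6.35% and 4.31%, the higher ones being Ccng1, Cdkn2a, Perp, Pmaip1 and Trp53i11 and the lower one Dram1. Wapl deletion left 0 members in either direction, beside 0.111% and 0.0317%, and with the block 1 higher, Trp53i11, and 0 lower, beside 1.43% and 1.05%. At an unadjusted p under 0.05 limma had 4 of 32 members there, beside 809 of all 12604 genes tested. Ctcf and Wapl deletion net of Adeno-Cre left Cdkn1a higher and Cdkn2a lower, beside 2.15% and 1.72%. With the block Pmaip1 (1.18, adjusted p = 0.0071) replaced Cdkn1a (0.79, adjusted p = 0.071) among the higher, beside 6.26% and 5.76%. Cdkn1a was not called there without untreated clone 3 (0.79, adjusted p = 0.14), with any 1 of the 4 wild-type libraries left out (0.89 to 1.10, adjusted p between 0.054 and 0.12) or with median-of-ratios scaling (0.86, 0.064).

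Of 39 other tested genes of the p53 pathway, a list that holds none of the 32, 0 were called without the block with Adeno-Cre, hydroxytamoxifen or Wapl deletion, and 1 was higher after Ctcf deletion, Zfp365 (1.09, SE 0.21, adjusted p = 0.0023). After Smc3 deletion 6 were higher and 2 lower, beside 9.37% and 5.60% of all genes. The median difference of the 39 was 0.07 there, the same as over all genes at this precision. The higher ones were led by Cmbl (1.86), Ccng2 (0.76), Sesn3 (0.66) and Cgrrf1 (0.59), and the lower ones were Thbs1 (-1.997), a matrix glycoprotein, and Shisa5 (-0.54). After Ctcf and Wapl deletion 4 were higher, 9630033F20Rik (0.95), Sesn2 (0.77), Wrap53 (0.70) and Ak1 (0.65), and 1 lower, Igfbp3 (-2.57), with a median of 0.20. All-gene shares were 10.5% and 5.34% there, and 5.04% and 2.63% after Ctcf deletion. The block called 8 of the 39 higher and 3 lower with Adeno-Cre in wild-type cells, 4 and 4 after Ctcf deletion, 12 and 4 after Smc3 deletion, 4 and 1 after Wapl deletion, 7 and 3 after Ctcf and Wapl deletion, and 0 with hydroxytamoxifen. All-gene shares with the block were 15.8% and 7.24% with Adeno-Cre, 15.7% and 9.35% after Ctcf deletion and 24.0% and 12.6% after Smc3 deletion. They were 7.62% and 6.97% after Wapl deletion and 14.7% and 8.17% after Ctcf and Wapl deletion. Of 7 tested kinases, cofactors and relatives of p53, only Trp53bp1, a double-strand break response protein, passed without the block in any of these 6 comparisons, after Smc3 deletion (0.33, adjusted p = 0.040). With the block 2 of the 7 were lower with Adeno-Cre in wild-type cells and 1 was higher after each of Smc3 and Wapl deletion.

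Cell-cycle genes and the other inhibitors of cyclin-dependent kinases were read beside Cdkn1a. Of 18 cell-cycle genes tested, 1 was higher and 3 lower after Smc3 deletion, Ccne1 (0.55) against Mcm2 (-0.57), Mcm3 (-0.56) and Mcm7 (-0.48). After Ctcf deletion Mcm2 was higher (0.81), after Ctcf and Wapl deletion Rrm2 (1.29), and without the block 0 passed after Wapl deletion or in either Cre control. The block called 1 higher and 7 lower after Wapl deletion, where the median of the 18 was -0.59, and 3 higher with Adeno-Cre in wild-type cells. It called 2 higher and 5 lower after Smc3 deletion and 4 higher after Ctcf and Wapl deletion. The all-gene shares given above for each comparison, with and without the block, apply to these lists as well. Of 4 other inhibitors tested, Cdkn1c, the p57 inhibitor, fell after Smc3 deletion from between 99.7 and 373 RPKM to between 12.7 and 58.6 (-2.86, SE 0.52, adjusted p = 0.0012). Interferon-response genes were higher in 12 of 15 with Adeno-Cre in wild-type cells and in 7 of 15 after Ctcf and Wapl deletion. After Ctcf deletion 1 of 15 was higher (with the block 2 higher and 1 lower), and untreated Ctcf(fl/fl) clones already summed to between 383 and 1016 RPKM over these genes, against 206 to 308 in untreated wild-type clones. These shifts accompany the Adeno-Cre values of Bax, Cdkn2a and Tap2, and their part in them was not tested.

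Nascent RNA was measured by global run-on sequencing (GRO-seq), which labels transcripts that engaged polymerase extends in isolated nuclei. For doubly floxed cells the table gives 1 column pooled over clones 1 and 2 untreated and 1 pooled over both after Adeno-Cre. It also gives 1 library after 3.5 h of DRB, an inhibitor of the kinase that releases paused polymerase, and 1 library after DRB and 1 day without it, both in cells given Adeno-Cre. Values are TPM (transcripts scaled to a common total), no column has replicates, and ratios of TPM + 0.1 are described without a test. These clones are not those of the mRNA libraries.

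Transcription of the members was detected in all 4 columns. Btg2, Mdm2 and Plk2 led in untreated cells at 309, 285 and 233 TPM, ahead of Trp53inp1 at 159 and Cdkn1a at 143, whereas Cdkn1a led in mRNA. After Adeno-Cre these 5 stood at 156, 95.2, 81.4, 94.0 and 133 TPM. The median log2 ratio of all 16320 genes with at least 1 TPM in a column was itself -0.74, and that of the members -0.76. Past 2-fold lay 0 members higher and 8 lower, beside 6.22% and 35.1% of all genes. With columns scaled by the median of ratios over genes above 0 in all of them, 3 were higher and 0 lower, beside 15.9% and 8.52%. Of the 32 members, 12 had a log2 ratio above the all-gene median, the highest being Gdf15 (0.84), Ckap2 (0.30), Perp (0.26) and Pmaip1 (0.21). Cdkn1a (-0.11) was above it as well, and Fas (-1.68) and Mdm2 (-1.58) were below it. Trp53i11, which was higher in mRNA, was also below it (-1.49), at 1.52 TPM untreated and 0.48 after Adeno-Cre. Pmaip1 went from 93.3 to 108 TPM and Perp from 12.2 to 14.6. A deposited pooled wild-type column, whose header names no library, gave 20.6 and 2.76 TPM for them. That column was used as deposited and not brought to the total of the others, so its levels may not be comparable with theirs. In the doubly floxed cells Trp53 stood at 14.4 TPM untreated and 14.3 after Adeno-Cre, and Cdkn2a at 22.2 and 11.3.

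**Figure D4:**
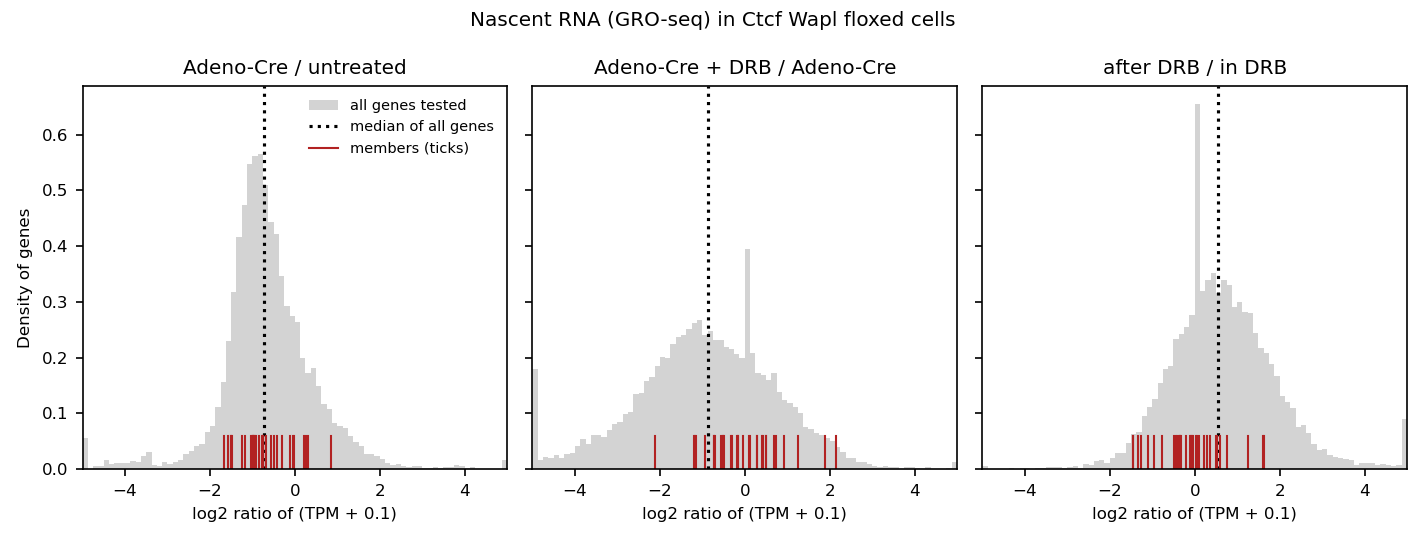
Density (y axis) of log2 ratios of TPM + 0.1 (x axis, values beyond 5 drawn at the edge) over 16320 genes in 3 comparisons of GRO-seq columns, with the all-gene median dotted and the 32 members as ticks. The members lie around the median of -0.74 after Adeno-Cre, mostly above the median of -0.88 in DRB, and mostly below the median of 0.55 after its removal.

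In DRB the members' median ratio was above that of all genes. The median log2 ratio to the column without DRB was -0.16 for the members and -0.88 for all genes, and 27 of 32 members lay above the all-gene median. Past 2-fold were 3 members higher and 4 lower, beside 11.4% and 47.0% of all genes. Scaled by the median of ratios, 12 were higher and 1 lower, beside 24.0% and 29.8%. Without that scaling, those higher were Trp53i11 (0.48 to 2.44 TPM), Trp53 (14.3 to 53.6 TPM) and Bbc3 (24.4 to 58.3 TPM). Those lower were Dram1 (1.24 to 0.21 TPM), Sesn1 (2.04 to 0.84 TPM), Rrm2b (5.75 to 2.49 TPM) and Cdkn2a (11.3 to 5.08 TPM). Cdkn1a went from 133 to 92.9 TPM and Mdm2 from 95.2 to 103. Gene span moved with these ratios: among genes below the members' median span of 17.8 kb (RefSeq, GRCm38.p6) the median was -0.14 for all and 0.19 for the 16 members, and above it -1.20 and -0.41. After removal of DRB the median ratio to the DRB column was 0.55 for all genes and -0.10 for the members, with 3 members more than 2-fold higher and 5 lower, beside 35.6% and 7.00%. Scaled by the median of ratios, 1 was higher and 14 lower there, beside 20.3% and 19.3%. Without that scaling, the higher were Cdkn2a, Dram1 and Rrm2b, each of which had been lower in DRB, and the lower were Trp53i11, Trp53, Bbc3, Aen and Tnfrsf10b. As the DRB column is shared by both ratios, a value that is low in it is drawn down in one and up in the other.

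The Adeno-Cre library of doubly floxed clone 3 is in a second, separately normalized mRNA table, so its levels are set beside those of its untreated partner without a test. Pmaip1 stood at 37.5 RPKM against 11.04 untreated, Perp at 78.3 against 17.0, Trp53i11 at 18.8 against 8.20 and Bax at 438 against 231. Trp53 stood at 113 against 83.1 RPKM. Cdkn1a at 650 against 602, Mdm2 at 38.0 against 35.3 and Cdkn2a at 273 against 269 lay closer together. For Pmaip1, Perp, Trp53i11, Bax and Trp53 the direction in this library was that of clone 4. Xpc, called higher on clone 4, stood at 6.88 RPKM against 6.96 untreated in clone 3. Cdkn2a in clone 4 stood at 248 RPKM untreated and 177 treated. A further library of clone 3 with the same labels, assigned to no group, lies in that second mRNA table. It stood lower than the untreated library of clone 3 in Pmaip1 (6.85 RPKM), Trp53i11 (4.55) and Bax (161). Perp (18.4) and Trp53 (102.5) stood higher there.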

How the data were processed

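The mRNA tables hold RPKM values per gene that the authors deposited, and the GRO-seq tables hold TPM values that the authors deposited. Those of the doubly floxed cells sum to 200000 for pooled and 100000 for single-library columns, so the latter were multiplied by 2. The wild-type column was used as deposited. The submitters' processing notes name build mm9, MACS 1.4.2, Bowtie 0.12.5, bedtools, HTSeq and TopHat in versions 1.3.1 and 1.4.1; which tool made which table, and whether counting used strand, is not given in the sources used here. Whole reads and transcript lengths were recovered from the RPKM steps (18155 of 18155 genes within 0.02 reads) to give depths.

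Genes with at least 1 RPKM in at least 2 libraries (12604 of 23339) were fitted on log2(RPKM + 1) with limma 3.58.1 in R 4.3.3, 1 mean per group over all 27 libraries (15 residual degrees of freedom), with a mean-variance trend, robust moderation and Benjamini-Hochberg adjustment over all genes at 0.05. The script was checked on simulated data. A difference net of a control is the difference between 2 responses in that model. Replicate numbers are clones, and treated and untreated libraries of a clone come from the same cells, so the labels pair them; same-clone deviations from the group means correlated at 0.679 in Ctcf, 0.468 in Wapl, 0.759 in wild-type, 0.492 to 0.700 in Smc3 and -0.198 in Cre-ER cells. Nothing in the labels says how clones were derived beyond their numbers, so p-values without the block measure the spread between clones. Those with the block, on 7 residual degrees of freedom, measure how far the response to treatment varied between clones.

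The 32 members and all lists were chosen with earlier results of these data known. Values in every library were given for members that passed in any comparison and for Cdkn1a, Mdm2, Trp53 and Cdkn2a, and for other lists at most the 4 largest differences in each direction. Promoter sequences are RefSeq's (GRCm38.p6), and coordinates of that build were also used for the gene spans set beside the DRB ratios. The second mRNA table, with 529 repeated row names, and the GRO-seq columns entered no test.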

Additional observations from a re-analysis of the deposited data

Results flagged for a closer look

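In 4 of the 64 sets of 4 Smc3 libraries (32 members, untreated and treated), 1 library lay apart from the other 3 by Dixon's gap ratio at the 95% level, and about 1 set in 20 does so by chance. Bax stood at 223 RPKM in untreated clone 1, above 189 to 194 in the other untreated clones. Pmaip1 stood at 17.2 RPKM in treated clone 2, above 11.5 to 11.9. Fas stood at 8.41 RPKM in treated clone 3, above 3.86 to 4.55, and untreated clone 3 also had the highest Fas of its group. Ckap2 stood at 5.53 RPKM in treated clone 4, below 8.15 to 8.35, and that clone alone did not follow the direction of the group.

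In 5 cases the response of deleted cells differed from that of the matching cells without a floxed allele, by limma's test of the difference between responses. Cdkn2a differed by -1.23 between Ctcf(fl/fl) and wild-type cells and by -1.34 between doubly floxed and wild-type cells. Tap2 differed by -1.22 between Ctcf(fl/fl) and wild-type cells. Trp53i11 differed by 1.92 between Smc3 and Cre-ER cells. Cdkn1a differed by 1.00 between doubly floxed and wild-type cells, which is the 1 of these 5 that was not called with the clone as a block.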

How the results depend on the processing

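Of 27 calls of members (22 in group comparisons, 5 in differences between responses), 20 were lost in at least 1 omission of a library, 24 when only the groups compared were fitted, 11 with median-of-ratios scaling, 11 with the length trend removed, 4 with no filter, 2 with a pseudocount of 0.1 RPKM and 1 of 24 with the replicate block; 0 reversed under any of these alternatives. Groups of 1 or 2 clones and depth at low genes such as Ddb2 and Mdm4 limit what can be detected, and the causes of the changes below were not tested.

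Members higher and lower with the replicate block, which follows the clone pairing, were 6 and 2 for Adeno-Cre, 7 and 5 for Ctcf, 16 and 4 for Smc3, 5 and 1 for Smc3 net of hydroxytamoxifen; those lower were 2 for Wapl and 4 for Ctcf and Wapl, and 1 was higher for Wapl net of hydroxytamoxifen. With the Cre-ER clones crossed in the block, chosen after seeing the data as was the length trend, the counts were 6 and 1 for Smc3 net and 1 higher for Wapl net. Of all genes, 6.05% and 4.54% were higher and lower there for Smc3 net, and 1.29% were higher for Wapl net. With the length trend removed and the replicate block, they were 7 and 5 for Ctcf, 11 and 5 for Smc3, 4 and 1 for Smc3 net and 1 higher for Wapl net, and those lower were 2 for Adeno-Cre, 2 for Wapl and 5 for Ctcf and Wapl. Of all genes, 11.6% and 12.2% were then higher and lower for Ctcf, 18.2% and 16.6% for Smc3 and 4.51% and 5.45% for Smc3 net, 1.47% were higher for Wapl net, and 5.16%, 7.73% and 10.9% were lower for Adeno-Cre, Wapl, and Ctcf and Wapl. With the length trend removed alone, those higher were 0 for Adeno-Cre, 1 for Ctcf, 3 for Smc3, 2 for Ctcf and Wapl and 0 for Cre-ER against wild-type, and those lower 4 for Ctcf, 1 for Smc3 and 0 for Cre-ER against wild-type, beside 0.706%, 4.32%, 7.86%, 6.42% and 2.53% of all genes higher and 3.44%, 7.05% and 4.27% lower.

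With only the groups compared, 0 were higher for Adeno-Cre, Ctcf, Wapl, and Ctcf and Wapl, 1 for Smc3 and 1 for Wapl net, and 0 were lower for Ctcf, Ctcf and Wapl, Cre-ER against wild-type and Ctcf net; Ctcf and Wapl net had 0 in each direction. All-gene shares there were 0% for Adeno-Cre, Wapl, and Ctcf and Wapl, at most 0.143% for Ctcf and the net comparisons named, 3.71% higher for Smc3 and 5.45% lower for Cre-ER against wild-type. Median-of-ratios scaling gave 1 higher for Ctcf, 2 higher and 1 lower for Smc3, 1 higher for Ctcf and Wapl, and 0 higher for Cre-ER against wild-type and for Ctcf and Wapl net. Of all genes, 4.13% were then higher for Ctcf, 7.00% higher and 6.31% lower for Smc3, and 5.43% higher for Ctcf and Wapl. For Cre-ER against wild-type 2.25% were higher, and for Ctcf and Wapl net 1.53%. For Cre-ER against wild-type those higher were 1 with a pseudocount of 0.1 RPKM, 0 with no filter and 1 with a mean of at least 5 RPKM. All-gene shares higher were 2.48%, 1.53% and 2.74% in that order.

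Leaving out 1 library at a time gave 0 to 3 higher and 0 to 1 lower for Adeno-Cre, 1 to 2 and 0 to 1 for Ctcf, 2 to 8 higher for Smc3, 1 to 2 higher for Wapl, 1 to 10 and 0 to 1 for Ctcf and Wapl, 0 to 1 and 0 to 1 for Cre-ER against wild-type, 0 to 1 and 1 to 2 for Ctcf net and 0 to 3 higher for Ctcf and Wapl net. All genes higher and lower ran from 0.333% to 2.56% and 0.0238% to 1.27% for Adeno-Cre, 1.77% to 4.09% and 1.25% to 1.82% for Ctcf, 5.13% to 15.8% and 3.32% to 6.91% for Ctcf and Wapl, 0.230% to 1.59% and 0.936% to 2.40% for Cre-ER against wild-type, and 0.413% to 0.881% and 0.341% to 0.730% for Ctcf net. Those higher ran from 5.95% to 10.9% for Smc3, 0.175% to 1.10% for Wapl and 1.06% to 5.55% for Ctcf and Wapl net. Without untreated doubly floxed clone 3, 1 member and 5.13% of all genes were higher, and without untreated clone 4, 10 members and 15.8%. Members past 2-fold in GRO-seq, 8 after Adeno-Cre, 7 in DRB and 8 after its removal, were 5 and 4 in the first pair with a pseudocount of 1 TPM, 22 and 14 at 1.5-fold, 4 in DRB at TPM of at least 5, and 3, 13 and 15 with median-of-ratios scaling. These counts join both directions, and all-gene shares are given above only for 2-fold under the 2 scalings. As the all-gene medians of the first pair were -0.74 and -0.88, the counts at the other settings cannot be read as particular to the members.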

Other observations

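One further library, from doubly floxed clone 3, has the same labels as the Adeno-Cre library of that clone and lies beside it in the second mRNA table, and it was assigned to no group. Its values there were 339 RPKM for Cdkn1a, 34.5 for Mdm2, 161 for Bax, 41.3 for Ccng1, 6.85 for Pmaip1, 18.4 for Perp, 4.55 for Trp53i11, 102.5 for Trp53, 111 for Cdkn2a and 83.5 for Plk2.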
